A study of Homo sapiens with 8 samples.

Results

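The zinc finger gene clusters of chromosome 19 were taken as 7 intervals of hg19, numbered here in chromosome order: cluster 1 is chr19:9200001-9900000, cluster 2 chr19:11600001-12600000, cluster 3 chr19:19900001-24600000, cluster 4 chr19:36500001-38300000, cluster 5 chr19:44300001-45000000, cluster 6 chr19:52400001-53900000 and cluster 7 chr19:57500001-59000000. Position alone chose the members. They were the regions under peaks of H3K4me2, dimethylation of lysine 4 of histone H3, that overlapped an interval after the peaks of the 4 library lists had been merged wherever they shared at least 1 bp. This gave 283 of 58952 merged regions, in 11.9 Mb of sequence. The rest of chromosome 19 from 6.9 Mb on, 40.3 Mb with 1641 regions, served for comparison.

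The cells were RD, a human rhabdomyosarcoma line in long use, at passages 10 to 15, and the mark was mapped by chromatin immunoprecipitation followed by sequencing (ChIP-seq). One group, siLSD1, received the Silencer Select siRNA s618, which targets LSD1, and the other, siCtrl, received a control siRNA. Both groups were transfected with Lipofectamine RNAiMAX, had their medium changed after 8 hours and were harvested at 96 hours. Each group had 2 replicates, which the submitters call biological, and 1 siRNA against LSD1 was used. Peak lists hold no measure of the knockdown and do not allow a check of the cell line against marker genes.

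Zinc finger genes of the Krüppel type are the largest family of transcription factor genes in the human genome, and many of them lie in tandem arrays on chromosome 19 that arose by repeated duplication. Many of their products carry a KRAB domain, which recruits the corepressor TRIM28 (KAP1), and bind transposable elements. H3K4me2 is found at promoters and enhancers, and LSD1, encoded by KDM1A, is an enzyme that takes methyl groups off this lysine when it carries 1 or 2 of them.

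The lists held 50587 and 49611 peaks for siLSD1 replicates 1 and 2, and 33878 and 44831 peaks for siCtrl replicates 1 and 2. The number of reads behind them is unknown, so a longer list can reflect depth or precipitation as well as marked sequence, and these cannot be told apart here. The siCtrl replicate 1 list was the shortest, and its omission is given beside several of the results it touches. The authors' score of a peak was turned into a percentile within its own list, where 100 is the top of the list.

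Most marked regions of the clusters were found in every library. A peak was present in all 4 libraries in 232 of the 283 cluster regions, called common regions here, which is 82.0% (exact 95% interval 77.0% to 86.3%). In the rest of chromosome 19 the share was 1005 of 1641 regions, or 61.2% (58.8% to 63.6%), and over all regions outside the clusters it was 45.03%. Of the other 51 cluster regions, 18 had a peak in 3 libraries, 13 in 2 and 20 in 1. The 18 regions of 3 libraries included 11 that lacked a peak in siCtrl replicate 1 alone, against 2 that lacked one in siLSD1 replicate 1, 2 in siLSD1 replicate 2 and 3 in siCtrl replicate 2. In the rest of chromosome 19, 133 of 172 regions of 3 libraries lacked a peak in siCtrl replicate 1 alone, and over all regions 6754 of 8776 did. Most regions 1 library short were thus missing from the shortest list, in the clusters and elsewhere. The share was smaller in the clusters, but it rests on 18 regions and the difference was not tested. Without siCtrl replicate 1, a peak was present in all libraries left in 243 of 282 cluster regions. The counts were then 1145 of 1631 in the rest and 33532 of 58408 over all regions. Intervals on shares of regions cover counting error only, and neighbouring regions share their libraries.

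**Figure D1:**
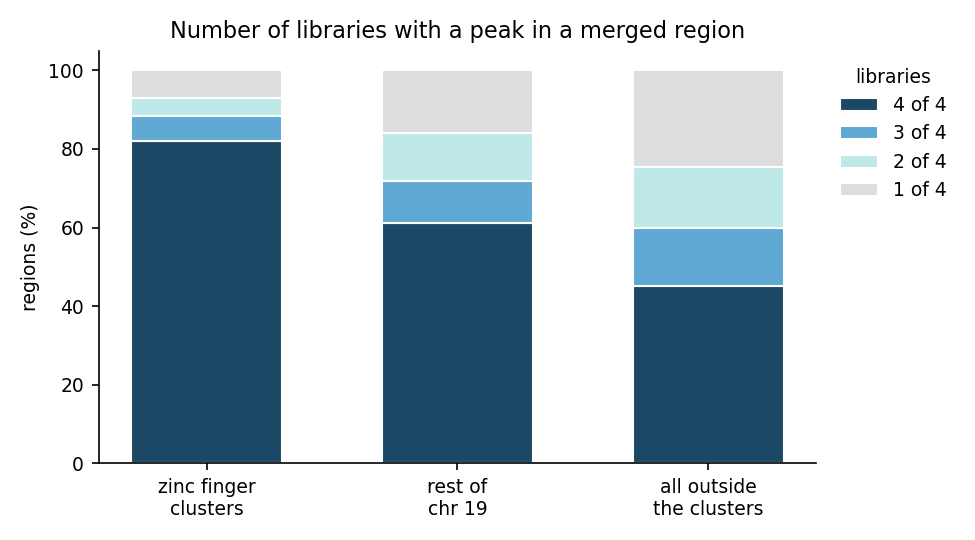
Percent of merged H3K4me2 regions (vertical axis) that had a peak in 4, 3, 2 or 1 of the 4 libraries, for the zinc finger clusters, the rest of chromosome 19 and all regions outside the clusters (bars from left to right). The share found in all 4 libraries was 82.0% in the clusters, 61.2% in the rest of chromosome 19 and 45.03% outside the clusters.

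Counted by peaks in place of regions, the shares were as follows in each library. Of the peaks that lay in the clusters, 88.8% and 88.2% in the siLSD1 libraries and 96.1% and 90.3% in the siCtrl libraries fell in common regions. In the rest of chromosome 19 these shares were 73.0% and 70.9% in the siLSD1 libraries and 93.4% and 81.9% in the siCtrl libraries. The clusters had the higher share in each of the 4 libraries, by a mean of 11.1 percentage points. Since a common region is one found in all 4 libraries, these shares describe the same regions again and are no separate support, and no test is given. With only the upper 50% of each list by score, the mean difference was -0.17 points. The covered sequence overlapped closely as well: any pair of libraries shared between 78.8% and 84.6% of their joint covered length in the clusters, against 66.9% to 78.7% in the rest of chromosome 19.

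How often a region was shared went with its best score, in the clusters and in the rest. Regions were sorted into quartiles of the list by the best percentile that any library gave them. A region with a peak in more libraries had more values to take its best from. Part of the rise with score is thus built into this sorting, and how large a part was not tested. In the lowest quartile, 0 of 23 cluster regions and 0 of 292 regions of the rest were common. In the next quartile, 6 of 24 cluster regions (25%) and 53 of 289 in the rest (18.3%) were common. In the quartile from percentile 50 to 75, 46 of 54 cluster regions (85.2%) and 207 of 304 in the rest (68.1%) were common. In the top quartile the shares were 180 of 182 (98.9%) in the clusters and 745 of 756 (98.5%) in the rest. By this best percentile the clusters had more of their regions in the top quartile, 64.3% against 46.1% in the rest, and fewer in the lowest, 8.13% against 17.8% in the rest. Within single lists the top quartile showed no such gap. The clusters' share of peaks there was higher in 3 of 4 libraries, by a mean of 2.47 ± 8.83 points (SD, n = 4; exact sign-flip permutation p = 0.625). The shares of the clusters and the rest stood furthest apart in the quartile from 50 to 75 and closest in the lowest and the top one.

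The 51 cluster regions that were not common were narrow and low in the lists. Their median width was 1483 bp and the median of their best percentile was 30.9, against 1437.5 bp and 27.0 for the 636 such regions of the rest. They lay a median of 18.0 kb from the nearest common region, against 8.37 kb in the rest, and 14 of the 51 lay within 5 kb of one.

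Cluster regions were of more even size than those of the rest and stood further apart. The median merged width of the common regions was 2970.5 bp in the clusters (quartiles 2657.5 and 3328 bp, maximum 5995 bp) and 3163 bp in the rest (quartiles 2338 and 4216 bp, maximum 26603 bp). Only 5 cluster regions (2.16%) spanned 5 kb or more, against 151 (15.0%) in the rest. The median distance to the nearest other common region was 19.7 kb in the clusters (quartiles 10.2 and 33.8 kb) and 7.77 kb in the rest (2.94 and 17.4 kb). A common neighbour within 5 kb was present for 14.7% of the common regions in the clusters and 36.9% in the rest. These are descriptions of the merged regions and were not tested over regions.

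**Figure D2:**
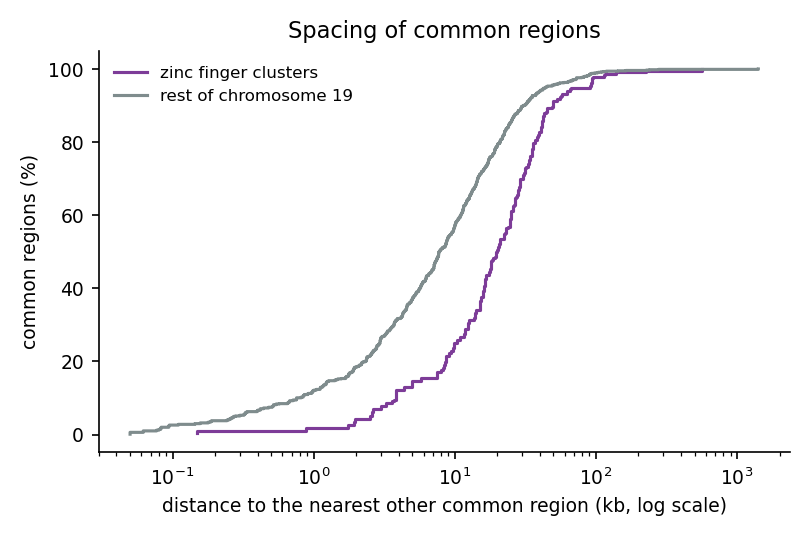
Cumulative percent of common regions (vertical axis) against the distance to the nearest other common region in kb (horizontal log axis), for the zinc finger clusters and the rest of chromosome 19. The cluster curve lies to the right, with a median of 19.7 kb in the clusters and 7.77 kb in the rest.

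Single peaks were broader at the median in the clusters than in the rest of chromosome 19. The median peak width in the clusters was 2324 and 2672 bp in the siLSD1 libraries and 2383.5 and 2617.5 bp in the siCtrl libraries. In the rest it was 2046 and 2244 bp in the siLSD1 libraries and 2179 and 2376 bp in the siCtrl libraries. The clusters were higher in 4 of 4 libraries, by 288 ± 98 bp (SD, n = 4; two-sided exact sign-flip permutation p = 0.13, the smallest that 4 libraries allow). Among the upper 50% of peaks by score the sign turned, and the clusters were below the rest by a mean of 80.25 bp, a signed difference of -80.25 bp. The direction of the width difference thus depended on whether low-scoring peaks were included.

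The score ranks showed the same lack of weak peaks and no clear shift at the top. The lowest quartile of each list supplied 9.52% and 5.17% of the cluster peaks in the siLSD1 libraries and 7.03% and 3.88% in the siCtrl libraries, against 15.4% and 15.7% of the peaks of the rest in the siLSD1 libraries and 14.8% and 14.2% in the siCtrl libraries. The top quartile supplied 44.2% and 57.2% of the cluster peaks in the siLSD1 libraries and 34.4% and 50.8% in the siCtrl libraries, where the rest had 43.0% and 43.7% in the siLSD1 libraries and 42.4% and 47.6% in the siCtrl libraries. The median percentile of cluster peaks was above that of the rest in 3 of 4 libraries, by a mean of 2.84 ± 4.64 points (SD, n = 4; exact sign-flip permutation p = 0.375), which is within the spread between libraries. With equal numbers of peaks per list the mean difference was -1.73 points, and in the upper 50% of the lists it was -5.23 points.

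Peak density was lower in the clusters, by an amount that depended on cluster 3 and on the centromeric bands. The clusters held 24.7 and 22.8 peaks per Mb in the siLSD1 libraries and 21.5 and 21.7 in the siCtrl libraries, against 39.7 and 37.7 in the rest in the siLSD1 libraries and 30.0 and 32.2 in the siCtrl libraries. The log2 ratio of the clusters to the rest was -0.61 ± 0.11 (SD, n = 4; exact sign-flip permutation p = 0.13), below 0 in 4 of 4 libraries. Without cluster 3, which reaches into the band at the centromere, it was -0.15 (p = 0.25, exact permutation test). That omission took sequence from the clusters only and left most of the centromeric bands (24.4 to 28.6 Mb) in the rest. With these bands left out of both parts and cluster 3 otherwise kept, the ratio was -0.74 (exact sign-flip permutation p = 0.13).

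**Figure D3:**
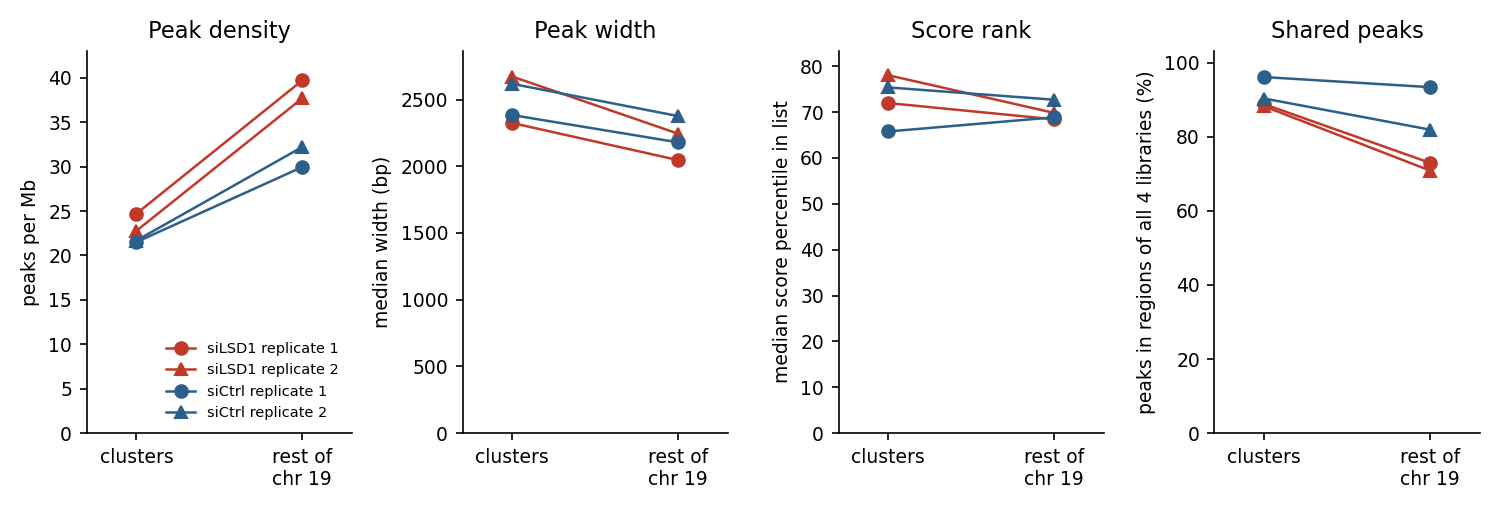
Peaks per Mb, median peak width in bp, median score percentile within the list and percent of peaks in regions of all 4 libraries (panels from left to right), for the zinc finger clusters and the rest of chromosome 19, with 1 line per library. Density was lower and width and shared peaks higher in the clusters in all 4 libraries, while the score percentile was higher in 3 of 4.

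The number of common regions in a cluster was close to the number of zinc finger genes in the run of genes set against it. In the RefSeq order of protein-coding genes on chromosome 19 (GRCh38.p14), 265 of 1451 genes carried a symbol of the zinc finger families ZNF, ZFP, ZSCAN, ZIK or ZIM. Runs of at least 11 such genes with no more than 2 other genes between neighbours numbered 7 and held 210 of these genes. The next longest run had 10 genes, so the number of runs was set by that minimum length, and its match to the number of intervals is no finding. The runs were set against the intervals by their order along the chromosome only, since the builds differ, and genes at the ends of a run can lie outside the interval. The clusters had 12, 33, 32, 39, 20, 41 and 55 common regions in their order, and the runs had 11, 24, 37, 29, 20, 40 and 49 zinc finger genes. Read-through entries such as ZNF559-ZNF177 were counted as genes. The ratio ranged from 0.865 common regions per gene in cluster 3 to 1.38 in cluster 2. No such ratio was worked out for the rest of chromosome 19. Across the 7 clusters the numbers ran together (Pearson r = 0.92, Spearman rho = 0.89), which is a description over clusters that differ in length and share the same libraries. Whether the regions lie at the promoters of these genes was not tested, since no gene annotation of hg19 was used.

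After the siRNA against LSD1 the clusters had few new and almost no missing regions. A region counted as gained where a peak lay in it in each siLSD1 library and in no siCtrl library, and as lost where the reverse held. There were 7 gained cluster regions, 2.47% of 283 (exact 95% interval 1.00% to 5.03%), against 144 (8.78%, 7.45% to 10.2%) in the rest of chromosome 19 and 6.97% of all merged regions. There was 1 lost cluster region (0.353%, 0.00895% to 1.95%), against 8 (0.488%) in the rest and 1.04% of all merged regions. With all peaks the share gained was thus below that of all regions, and the share lost cannot be set apart from it on 1 region. With equal numbers of peaks, the top 33878 of each list, 5 of 261 cluster regions were gained (1.92%) and 7 were lost (2.68%), against 74 of 1329 gained (5.57%) and 26 lost (1.96%) in the rest and 3.29% gained and 3.42% lost over all regions. At equal list lengths the clusters' share gained was thus nearer to that of all regions, and gained regions did not outnumber lost ones in the clusters or over all regions. Without siCtrl replicate 1, 10 cluster regions (3.55%) were gained and 6 (2.13%) lost, against 7.90% gained and 7.05% lost over all regions. Without siCtrl replicate 2, 18 (6.43%) were gained and 2 (0.714%) lost, against 19.5% gained and 2.54% lost over all regions. Without siLSD1 replicate 1 or 2, 13 (4.73%) or 15 (5.42%) were gained, against 17.9% or 16.8% over all regions, and 3 were lost in both cases, 1.09% without replicate 1 and 1.08% without replicate 2, against 2.49% and 2.61% over all regions.

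The share gained also went with the best score. A gained region took its best percentile from fewer libraries than a common region, so part of this trend is built into the sorting as well. In the lowest 2 quartiles by best percentile, 2 of 23 (8.70%) and 3 of 24 (12.5%) cluster regions were gained, against 38 of 292 (13.0%) and 73 of 289 (25.3%) in the rest. In the upper 2 quartiles it was 1 of 54 (1.85%) and 1 of 182 (0.549%) in the clusters, against 30 of 304 (9.87%) and 3 of 756 (0.397%) in the rest. The clusters had the lower share in each quartile but the top one, on few regions each.

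The 7 gained regions were spread over 5 of the 7 clusters. The one with the highest scores was chr19:53684903-53687491 (19q13.42, cluster 6), where peaks covered 1.80 and 2.59 kb in the siLSD1 libraries and 0 kb in both siCtrl libraries. Its score ranked at percentiles 30.0 and 76.4 of the siLSD1 lists. The list of pooled siCtrl replicates did hold a peak there, with the authors' score of 101.36, against 552.79 in the pooled siLSD1 list, so the mark was not absent after siCtrl.

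Next came chr19:11655502-11657587 (19p13.2, cluster 2), with 1.72 and 2.08 kb in the siLSD1 libraries and 0 kb in both siCtrl libraries. At chr19:53438075-53440119 (19q13.41, cluster 6) the siLSD1 libraries had 1.88 kb each and the siCtrl libraries 0 kb, which gave the smallest limma p of any cluster region. Its difference was 1.88 kb with a standard error of 0.227 kb, an unadjusted p of 0.00206 and a Benjamini-Hochberg adjusted p of 0.155. Neither region had a peak in the pooled siCtrl list. A gained region entered the limma test through its siLSD1 peaks alone, with 0 kb in both siCtrl libraries. Its p thus restates the rule for gained regions and is no separate support.

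The other gained regions were weaker. At chr19:36627059-36628709 (19q13.12, cluster 4) peaks covered 1.18 and 1.61 kb in the siLSD1 libraries and 0 kb in the siCtrl libraries. At chr19:58785635-58787155 (19q13.43, cluster 7) they covered 0.914 and 1.52 kb in the siLSD1 libraries and 0 kb in the siCtrl libraries. Both lay close to a common region, at 0.786 kb from it in cluster 4 and 1.15 kb in cluster 7. At chr19:9238612-9239980 (19p13.2, cluster 1) peaks covered 1.15 and 1.28 kb in the siLSD1 libraries and 0 kb in the siCtrl libraries. At chr19:52703050-52704075 (19q13.41, cluster 6) they covered 1.03 and 0.798 kb in the siLSD1 libraries and 0 kb in the siCtrl libraries, with scores of 55.87 and 51.27 just above the lists' minimum of 50. The gained regions thus included peaks at the limit of detection. The lost region, chr19:9810226-9811758 (19p13.2, cluster 1), had 0 kb in both siLSD1 libraries and 0.883 and 0.976 kb in the siCtrl libraries, and a peak in both pooled lists, scored 88.74 for siLSD1 and 224.74 for siCtrl.

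The pooled lists, which have no replicates, held few unshared peaks in the clusters. Of 282 pooled siLSD1 peaks in the clusters, 19 met no pooled siCtrl peak, or 6.74% (exact 95% interval 4.10% to 10.3%), against 358 of 1606 (22.3%) in the rest and 27.0% of all pooled siLSD1 peaks. Of 269 pooled siCtrl peaks in the clusters, 8 met no pooled siLSD1 peak, or 2.97% (1.29% to 5.78%), against 54 of 1312 (4.12%) in the rest and 8.86% of all pooled siCtrl peaks. Such peaks were weak: their median score was 79.8 in the pooled siLSD1 list and 60.17 in the pooled siCtrl list, where all cluster peaks had medians of 854.85 in siLSD1 and 938.7 in siCtrl. At equal numbers of pooled peaks the order of the lists turned: 8 of 263 siLSD1 peaks in the clusters (3.04%) met no siCtrl peak, against 14.5% in the rest and 16.0% of all, and 15 of 269 siCtrl peaks (5.58%) met no siLSD1 peak, against 8.08% in the rest and 16.0% of all. Both cluster shares were below those of all pooled peaks.

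The number of peaks in the clusters was higher in both siLSD1 libraries, with 294 and 271 in the siLSD1 libraries against 256 and 258 in the siCtrl libraries. The means were 282.5 ± 16.3 after siLSD1 and 257 ± 1.41 after siCtrl (SD, n = 2 each), a ratio of 1.10 with a two-sided exact permutation p of 0.33, the smallest that 2 libraries against 2 allow. Some peaks were parts of split regions: 29 common regions held more than 1 peak in siLSD1 replicate 1 and 7 in siLSD1 replicate 2, against 14 in siCtrl replicate 1 and 1 in siCtrl replicate 2. The groups overlapped in this, and replicate 1 had more such regions than replicate 2 after either siRNA. With equal numbers of peaks per list the mean difference was 1.5 peaks. In the rest of chromosome 19 the counts were 1601 and 1520 in the siLSD1 libraries and 1208 and 1299 in the siCtrl libraries, a ratio of 1.24.

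The covered length of the clusters overlapped between the groups. It was 665 and 709 kb in the siLSD1 libraries and 599 and 678 kb in the siCtrl libraries. The means were 687 ± 30.9 kb after siLSD1 and 639 ± 55.9 kb after siCtrl (SD, n = 2 each), a ratio of 1.08 (exact permutation p = 0.667). The difference of 48.3 kb was 8.77 kb without siCtrl replicate 1. In the rest of chromosome 19 peaks covered 3782 and 3972 kb in the siLSD1 libraries and 2953 and 3440 kb in the siCtrl libraries, a ratio of 1.21 (exact permutation p = 0.33).

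The share of the chromosome 19 peaks that lay in the clusters was lower in both siLSD1 libraries, while their share of the whole list overlapped between the groups. The clusters held 15.5% and 15.1% of the chromosome's peaks from 6.9 Mb on in the siLSD1 libraries, against 17.5% and 16.6% in the siCtrl libraries. The groups did not overlap and differed by -1.71 percentage points, with means of 15.3% ± 0.271 after siLSD1 and 17.0% ± 0.648 after siCtrl (SD, n = 2 each; two-sided exact permutation p = 0.33, the smallest possible). The clusters' share of the chromosome's covered length was 15.0% and 15.1% in the siLSD1 libraries, against 16.9% and 16.5% in the siCtrl libraries (exact permutation p = 0.33). The difference in the share of peaks was -0.74 points at equal numbers of peaks, and -0.59 points in the upper 50% of the lists, where the groups overlapped (exact permutation p = 0.667). Of the peaks of the whole list, the clusters held 0.581% and 0.546% in the siLSD1 libraries and 0.756% and 0.575% in the siCtrl libraries (exact permutation p = 0.667), where siLSD1 replicate 1 lay above siCtrl replicate 2. List length moved with the siRNA in these libraries, and its part in the smaller share was not tested.

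The clusters differed in how densely and how evenly they were marked. Common regions numbered 36.7 per Mb in cluster 7 and 33.0 in cluster 2, followed by 28.6 in cluster 5, 27.3 in cluster 6, 21.7 in cluster 4, 17.1 in cluster 1 and 6.81 in cluster 3. The share of regions that were common was highest in cluster 5, with 20 of 21 (95.2%), and cluster 7, with 55 of 59 (93.2%). It was lowest in cluster 3, with 32 of 51 (62.7%), and cluster 1, with 12 of 18 (66.7%). The sparsest cluster was therefore also the least shared.

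**Figure D4:**
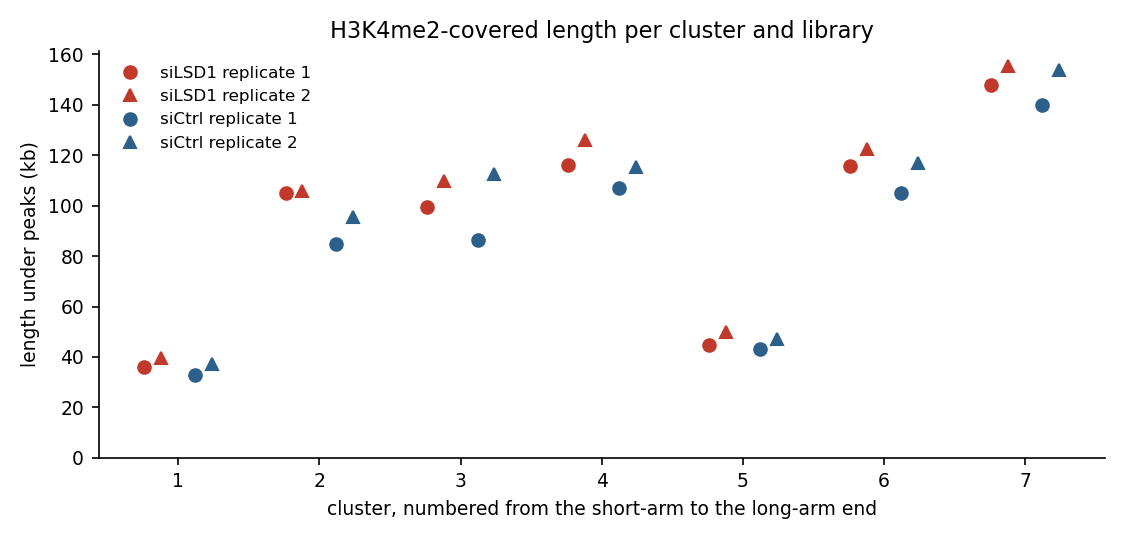
Length under H3K4me2 peaks in kb (vertical axis) in each of the 7 zinc finger clusters (horizontal axis, in chromosome order), with 1 point per library, siLSD1 left of siCtrl. The groups were apart in clusters 2 and 4, with both siLSD1 libraries above both siCtrl libraries, and overlapped in the other 5.

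Cluster 2 had the largest ratio of the groups, and its lower siCtrl value came from replicate 1, the shortest list. Peaks covered 105.1 and 105.9 kb of it in the siLSD1 libraries and 84.9 and 95.7 kb in the siCtrl libraries, with means of 105.5 ± 0.559 kb after siLSD1 and 90.3 ± 7.64 kb after siCtrl (SD, n = 2 each), a ratio of 1.17. Of its 33 common regions, 17 (51.5%) were broader in both siLSD1 libraries than in either siCtrl library and 0 were narrower, where 30.3% of all common regions were broader and 9.62% narrower. The cluster was singled out for its ratio, so this count describes it and is no separate support. Its common region with the highest scores, chr19:12033771-12037983 (19p13.2), was also its broadest and did not take part in this. It covered 3.75 and 4.21 kb in the siLSD1 libraries and 3.85 and 4.14 kb in the siCtrl libraries, and ranked between percentiles 94.1 and 98.9 of the 4 lists, the highest mean rank in the clusters. The longest stretch of the cluster without a peak in any library spanned 92.0 kb, chr19:12307704-12399748.

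Cluster 4, the other one without overlap, had 116.1 and 126.1 kb covered in the siLSD1 libraries and 106.8 and 115.4 kb in the siCtrl libraries, a ratio of 1.09. The lower siLSD1 and the higher siCtrl library differed by little. Its highest-ranked and broadest common region was chr19:37956627-37961759 (19q13.12), with 4.97 and 5.07 kb in the siLSD1 libraries and 4.61 and 4.98 kb in the siCtrl libraries, where the groups overlapped. It borders the longest stretch of the cluster without a peak in any library, chr19:37961760-38084228, which spanned 122.5 kb.

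Cluster 3, from 19p13.11 to 19p11, held the longest stretch of the 7 clusters without a peak in any library. No library had a peak in chr19:22035731-23257785, a span of 1222 kb. The pooled lists were not searched for such stretches, and whether reads could be placed there was not tested. Peaks covered 99.4 and 109.8 kb of the cluster in the siLSD1 libraries and 86.4 and 112.4 kb in the siCtrl libraries, so the groups overlapped, with the 2 replicates of siCtrl further apart than the group means. Its highest-ranked common region, chr19:21786057-21788449 (19p12), had 2.28 and 2.39 kb in the siLSD1 libraries and 2.20 and 2.23 kb in the siCtrl libraries.

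The broadest common region of cluster 3, chr19:20188361-20194355 (19p12), was narrower after siLSD1. It had 3.75 and 4.38 kb in the siLSD1 libraries and 5.56 and 5.77 kb in the siCtrl libraries. The groups did not overlap, and its mean score percentile over the 4 lists was 76.0. The difference of -1.60 kb (standard error 0.324 kb) had the smallest limma p among cluster regions that were lower after siLSD1, at 0.0121, with an adjusted p of 0.155 that did not pass. The region was split as well: each siLSD1 list held 2 peaks in this region and each siCtrl list 1.

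The remaining clusters overlapped between the groups. In cluster 1 peaks covered 36.0 and 39.5 kb in the siLSD1 libraries and 33.0 and 37.3 kb in the siCtrl libraries. Its highest-ranked region, chr19:9433190-9436493 (19p13.2), had 3.19 and 3.26 kb in the siLSD1 libraries and 2.72 and 2.94 kb in the siCtrl libraries, so that it was broader in both siLSD1 libraries (limma adjusted p = 0.442). Its broadest region, chr19:9691906-9696172, had 3.56 and 3.65 kb in the siLSD1 libraries and 3.32 and 4.22 kb in the siCtrl libraries. The siCtrl libraries thus lay on both sides of the siLSD1 ones there.

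In cluster 5 peaks covered 44.9 and 49.8 kb in the siLSD1 libraries and 43.1 and 47.0 kb in the siCtrl libraries. The highest-ranked region was chr19:44575266-44577805 (19q13.31), with 2.40 and 2.44 kb in the siLSD1 libraries and 2.34 kb in each siCtrl library. The broadest was chr19:44615375-44619101, with 3.11 and 3.73 kb in the siLSD1 libraries and 2.99 and 3.11 kb in the siCtrl libraries. In both regions the siLSD1 libraries were the broader ones, by less than 0.1 kb at the closest.

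In cluster 6 peaks covered 115.8 and 122.5 kb in the siLSD1 libraries and 105.2 and 116.8 kb in the siCtrl libraries. Its highest-ranked region, chr19:53288688-53291763 (19q13.41), had 2.62 and 3.08 kb in the siLSD1 libraries and 2.78 and 3.0 kb in the siCtrl libraries, which overlapped. Its broadest region, chr19:52691348-52696156, had 3.77 and 3.97 kb in the siLSD1 libraries and 4.06 and 4.53 kb in the siCtrl libraries, narrower in both siLSD1 libraries (limma adjusted p = 0.618).

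Cluster 7 had the most peaks and the smallest ratio of the groups, 1.03, with 148.0 and 155.4 kb in the siLSD1 libraries and 139.9 and 153.8 kb in the siCtrl libraries. Of its 55 common regions, 7 (12.7%) were broader and 8 (14.5%) narrower in both siLSD1 libraries, against 30.3% and 9.62% of all common regions. This cluster too was singled out for its ratio, so these counts describe it and are no separate support. Its highest-ranked common region, chr19:58896014-58900702 (19q13.43), had 4.16 and 4.40 kb in the siLSD1 libraries and 4.26 and 4.23 kb in the siCtrl libraries. The broadest, chr19:57790296-57795638, had 4.59 and 5.31 kb in the siLSD1 libraries and 4.25 and 5.30 kb in the siCtrl libraries. Both overlapped between the groups. The longest stretches without a library peak in clusters 1, 5, 6 and 7 were 100.1, 89.0, 71.0 and 67.5 kb, all far shorter than that of cluster 3.

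Over all clusters, the breadth of common regions differed little between the groups. The region was broader in each siLSD1 library than in either siCtrl library in 65 of 232 common regions, or 28.0% (exact 95% interval 22.3% to 34.3%), where 30.3% of all common regions were broader. It was narrower in each in 20, or 8.62% (5.35% to 13.0%), where 9.62% of all common regions were narrower. Both shares were near those of all common regions. The rest of chromosome 19 had 35.4% broader and 10.4% narrower.

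The mean breadth of the 232 regions was 2671 and 2830 bp in the siLSD1 libraries and 2531 and 2774 bp in the siCtrl libraries (exact permutation p = 0.667), with siLSD1 replicate 1 below siCtrl replicate 2. The mean of the siLSD1 libraries was above that of the siCtrl libraries in 152 regions and below it in 80. This count was not made for the rest or for all common regions, so it shows no lean particular to the clusters. The median difference was 78.5 bp (quartiles -53.5 and 257.25 bp), against 140.5 bp in the rest and 126 bp over all common regions. The lean towards broader regions varied with the libraries used. Without siCtrl replicate 1, 81 common cluster regions (33.3%) were broader and 75 (30.9%) narrower after siLSD1, against 37.8% broader and 30.7% narrower of all common regions. Without siLSD1 replicate 2, 84 (35.9%) were broader and 65 (27.8%) narrower, against 39.0% and 26.0% of all. Without siLSD1 replicate 1, 127 (54.3%) were broader and 30 (12.8%) narrower, against 52.9% and 16.4% of all. Without siCtrl replicate 2, 149 (62.9%) were broader and 35 (14.8%) narrower, against 63.1% and 14.1% of all. The cluster shares were near those of all common regions under each omission.

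**Figure D5:**
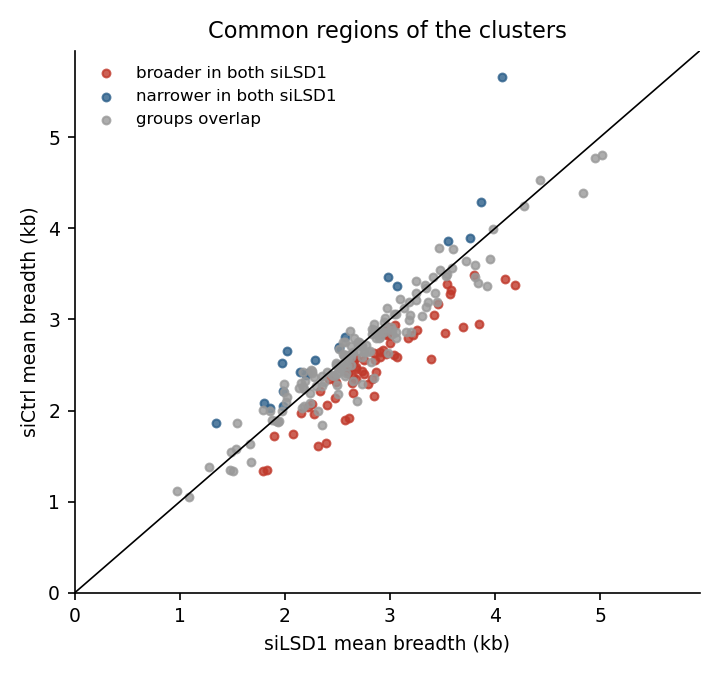
Mean length under peaks in kb over the siLSD1 libraries (horizontal axis) and the siCtrl libraries (vertical axis) for each of the 232 common cluster regions, with the line of equality. Red points (65) were broader and blue points (20) narrower in both siLSD1 libraries than in either siCtrl library, and grey points overlapped between the groups.

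No cluster region passed the test across all regions. With limma on the covered kb of 44464 regions, 0 of 263 cluster regions tested had a Benjamini-Hochberg adjusted p under 0.05, and so had 0 (0%) of all regions in either direction. The lowest adjusted value in the clusters was 0.155. Before adjustment, at a p under 0.05, 10 cluster regions (3.80%) were higher after siLSD1, where 13.4% of all regions were, and 3 (1.14%) were lower, where 2.24% of all regions were. In the rest of chromosome 19, 237 of 1379 (17.2%) were higher and 24 (1.74%) lower. The 10 higher regions included the 7 gained ones and 1 common region, and the 3 lower ones were the lost region and 2 common regions. Gained and lost regions entered the test through 1 group alone, so their p restates the rule that called them. With a peak required in at least 3 libraries, 4 of 250 cluster regions were higher and 1 lower, with a lowest adjusted p of 0.43. Over all regions, 2074 of 35429 were then higher and 412 lower.

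The 2 common regions that were lower in the main test included the broad region of cluster 3 described above. The other, chr19:58445512-58447447 (19q13.43, cluster 7), had 1.26 and 1.43 kb in the siLSD1 libraries and 1.84 and 1.88 kb in the siCtrl libraries, with an unadjusted p of 0.0335 and an adjusted p of 0.245. The fourth smallest p among lower regions belonged to chr19:52406167-52408971 (19q13.41, cluster 6), with 2.16 and 1.80 kb in the siLSD1 libraries and 2.34 and 2.71 kb in the siCtrl libraries (adjusted p = 0.461). Neither passed the adjusted threshold. The median limma difference was 0.092 kb in the clusters, against 0.226 kb in the rest and 0.212 kb over all regions, and without siCtrl replicate 1 it was -0.008 kb in the clusters, 0.0925 kb in the rest and 0.0215 kb over all regions.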

How the data were processed

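H3K4me2 ChIP-seq was available for 4 ChIP libraries. The 4 input libraries were not analysed here. Reads were aligned with Bowtie to hg19, per the submitters' processing notes. The deposited peaks are named after MACS (version, settings and use of the inputs: not given in the sources used here), and the authors' score of a peak, which starts at 50 and looks like a log-scaled p-value, was used within its own list only. The library lists are per sample. The 2 pooled lists hold the replicates of each siRNA together.

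Peaks on chromosomes 1 to 22 and X were merged over the 4 library lists by an overlap of at least 1 bp. Covered kb per region were tested in limma 3.58.1 (with trend and robust set, R 4.3.3, statmod 1.5.0) over 44464 regions with a peak in at least 2 libraries, with Benjamini-Hochberg adjustment and a threshold of 0.05. Library totals were compared by two-sided exact permutation tests in Python 3.11.15 with scipy 1.17.1, numpy 2.4.6 and pandas 2.3.3, and plotted with matplotlib 3.10.9. Shares carry exact (Clopper-Pearson) 95% intervals for counting error only. The scripts were tested on simulated data.

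The regions named are, in each cluster, the common region with the highest mean score percentile and the broadest one, every gained and lost region, the 4 with the smallest limma p in each direction, and the longest stretch without a peak. The common regions of at least 5 kb were also looked at, a choice made after their values were seen. Cytobands came with the R package circlize 0.4.16. Gene names and their order came from RefSeq (GRCh38.p14), and no gene was assigned to a region. The intervals, gene list and tests were chosen with earlier results of these data known. Shared peaks, covered share, score quartiles, shared length, spacing and the breadth counts without single libraries were added after the data were seen. Alternatives tried were equal numbers of peaks, only the upper 50% of a list by score, other merging rules, all 6 lists merged, membership by midpoint, omission of cluster 3 or of the centromeric bands, other limma settings, a replicate block and leaving out each library.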

Additional observations from a re-analysis of the deposited data

How the results depend on the processing

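Of 189 recomputed values of 19 results, 7 turned in sign, and 39 moved by over 1.5 times (counts) or beyond their counting interval (shares). The other 143 kept their direction, counts within 1.5 times, and in some cases shrank: the difference in peaks from 25.5 to 1.5 at equal numbers, covered length from 48.3 to 8.77 kb without siCtrl replicate 1, and log2 density from -0.61 to -0.15 without cluster 3. Without the centromeric bands log2 density was -0.74, further from the rest than in the main setting. Depth is unknown and 2 libraries per group limit every test. With equal numbers of peaks, 7 regions were lost, the clusters differed from the rest by -3.65 points in the share gained and 0.73 in the share lost, median score percentile by -1.73 points, 6 regions were higher and 8 lower at an unadjusted limma p under 0.05, and 8 pooled siLSD1 and 15 pooled siCtrl peaks were unshared. In the upper 50% by score, the share gained differed by -3.11 points, 12 regions were narrower, shared peaks differed by -0.17 points, width by -80.25 bp and percentile by -5.23 points, and 4 pooled siCtrl peaks were unshared. Without cluster 3 that last count was 5. An overlap of 50% gave 0 lost regions and a difference in the share lost of -0.54 points, and merging across gaps gave 0.023 points. At an unadjusted p, quantile normalization gave 5 higher and 9 lower regions, a peak in at least 3 libraries 4 and 1, and no filter 1 lower. Over all regions, 2779 of 33279 were higher and 1708 lower at equal numbers, where 250 cluster regions were tested. With quantile normalization 2782 of 44464 were higher and 2176 lower, where 263 cluster regions were tested. In these 2 settings the clusters' shares were below those of all regions in both directions. Leaving out each library gave 10 to 18 gained and 2 to 6 lost regions, since fewer libraries then have to meet the rule, differences from the rest of -11.8 to -6.14 points in the share gained and -1.06 to 0.060 in the share lost, 81 to 149 broader and 30 to 75 narrower regions, and at an unadjusted p 2 to 29 higher (29 without siCtrl replicate 2) and 0 to 3 lower. Apart from these constructions the cause was not tested. With 2 libraries each, the replicate numbers cannot show whether samples were paired. With the replicate block, limma called 0 cluster regions and had 12 higher and 3 lower at an unadjusted p under 0.05. Over all 44464 regions, 6507 were then higher and 1058 lower. Quantile normalization moved the median limma difference over all regions to -0.091 kb and that of the clusters to -0.134 kb.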
